A study of Caenorhabditis elegans with 10 samples.

Results

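Ribosome footprints are the stretches of mRNA that lie inside a ribosome at work and survive digestion. They were compared between 2 stretches of larval growth that lie 8 h apart. The worms were Caenorhabditis elegans of the strain N2, the standard wild type, in which most animals are self-fertile hermaphrodites. Eggs were left to hatch overnight, and the first-stage larvae were put on bacteria (NA22) and grown without interruption until harvest of whole worms. All libraries share this strain and growth, and no agent or mutation was added. The 4 libraries taken at 18, 20, 22 and 24 h after plating are called the first cycle here, and the 4 taken at 26, 28, 30 and 32 h the second cycle. They are 8 of the 10 libraries of the time course, chosen by their labelled times. Each second-cycle library was set against the library taken 8 h earlier, which gives the pairs 26 h with 18 h, 28 h with 20 h, 30 h with 22 h and 32 h with 24 h. The series concerns expression that oscillates through larval life, here with a period near 8 h. A gene that repeats itself exactly 8 h later changes little within such a pair, and differences between younger and older larvae remain. So do shifts in the timing of the rhythm, which change the level of a cycling gene within its pair.

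The labels give hours and no larval stage, and 1 library was made per time. The 4 pairs are therefore 4 different times and not replicates, and the error of a change is the disagreement between pairs. Whether each library is a culture of its own is not stated. Age, a shift of the rhythm against the 8 h spacing and the making of the single libraries cannot be told apart. Neither can a change of mRNA level and a change of its translation. Between 16723638 (24 h) and 33696423 (26 h) counts were held by each library, and the most abundant gene held 1.02% to 1.43% of a library. Levels are given as CPM, counts scaled to a library of 1000000 counts after TMM scaling, a correction for differences in library composition. Markers of the tissues of a larva were present in both cycles. The summed level of unc-54, myo-3 and unc-15 of body-wall muscle was 8245 to 12620 CPM in the first cycle and 10170 to 11860 CPM in the second. For elt-2, ges-1 and vha-6 of the intestine it was 407 to 500 CPM and 360 to 533 CPM. Markers of embryos were near 0 throughout, with pes-10 at 0 counts in all 8 libraries.

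Several known programs run through these hours of larval life. The heterochronic pathway is a chain of RNA-binding proteins, transcription factors and small RNAs that tells epidermal stem cells, the seam cells, which stage they are in. Its early factors hold back adult fates until they are themselves shut off, after which late factors start the adult program. Meanwhile the germ line multiplies, enters meiosis and, in hermaphrodites, makes sperm before eggs, and the epidermis lays down a new collagen cuticle at every moult.

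Of 12909 genes with enough counts to be tested, 414 (3.21%) differed between the cycles by at least 1 log2, a doubling, at an edgeR adjusted p under 0.05. Among them 330 (2.56% of tested genes) were higher in the second cycle and 84 (0.651%) were lower. The genes called higher rose by a median of 1.96 log2 (3.90-fold), and 329 of the 330 rose in all 4 pairs. The genes called lower fell by a median of 1.26 on the log2 scale, and all 84 fell in every pair. Over all tested genes the median change was -0.01 log2, and 1161 genes (8.99%) passed the adjusted p at any size. Of the 330 higher genes, 90 had a count of 0 in at least 1 first-cycle library, and of the 84 lower genes 0 had one in a second-cycle library.

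The count filter bears on these calls, since a gene needed about 10 counts at median depth (0.441 CPM) in at least 3 libraries to be tested. Of the 330 higher genes, 140 reached that level in fewer than 3 first-cycle libraries, and 114 of them in none, so they passed only through libraries of the cycle in which they are high. The same holds for 20 of the 84 lower genes with the cycles exchanged. The filter favours a difference in such genes, and their calls are no independent evidence of one. Among the genes described below these are mab-10, cpb-1, alg-4, wago-10, spe-44, gsp-3, gsp-4, the ssq genes, the msp genes, his-70, rpn-6.2, fkh-6, inx-22, col-138, cut-1, grl-9, grl-20, grl-25, clec-73, clec-79, cyp-31A2, B0393.4, T10E9.4, msrp-2 and nsph-3.2 of the higher genes. Of the lower they are ceh-16, nhr-38, grl-3, clec-9, klp-6, bath-9 and bath-37.

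The 4 pairs did not carry equal weight. Without the pair of 32 h with 24 h, edgeR called 0 genes (smallest edgeR adjusted p = 0.0593, with 2867 genes at an unadjusted p under 0.05). Without 30 h with 22 h it called 10 higher and 1 lower, without 28 h with 20 h 131 and 16, and without 26 h with 18 h 325 and 85. Each such fit has 3 pairs in place of 4. Scaling by total counts alone moved the median of all tested genes to -0.12 log2 and turned the split of calls from 79.7% higher to 59.5% higher (279 higher and 190 lower). Limma on the authors' normalized values gave 62.7% higher.

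Requiring more than 1 log2 in every single pair left 187 genes higher (1.45%) and 26 lower (0.201%), of which 161 and 24 were also called. Within single pairs, the genes more than 1 log2 higher numbered 1014 (7.85%) for 26 h with 18 h, 980 (7.59%) for 28 h with 20 h, 687 (5.32%) for 30 h with 22 h and 704 (5.45%) for 32 h with 24 h. Lower genes numbered 627 (4.86%), 856 (6.63%), 527 (4.08%) and 539 (4.18%) in the same order. Across genes, the changes of the last pairs resembled each other most. Pearson's r over the 12909 genes was 0.788 between the changes of 30 h with 22 h and of 32 h with 24 h, and 0.296 to 0.337 between those of 26 h with 18 h and of each other pair. Genes are not independent replicates, and these values only describe the table. The spread between a gene's lowest and highest paired change had a median of 0.58 log2 over all genes, 1.31 log2 over genes called higher and 0.82 log2 over those called lower.

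**Figure D1:**
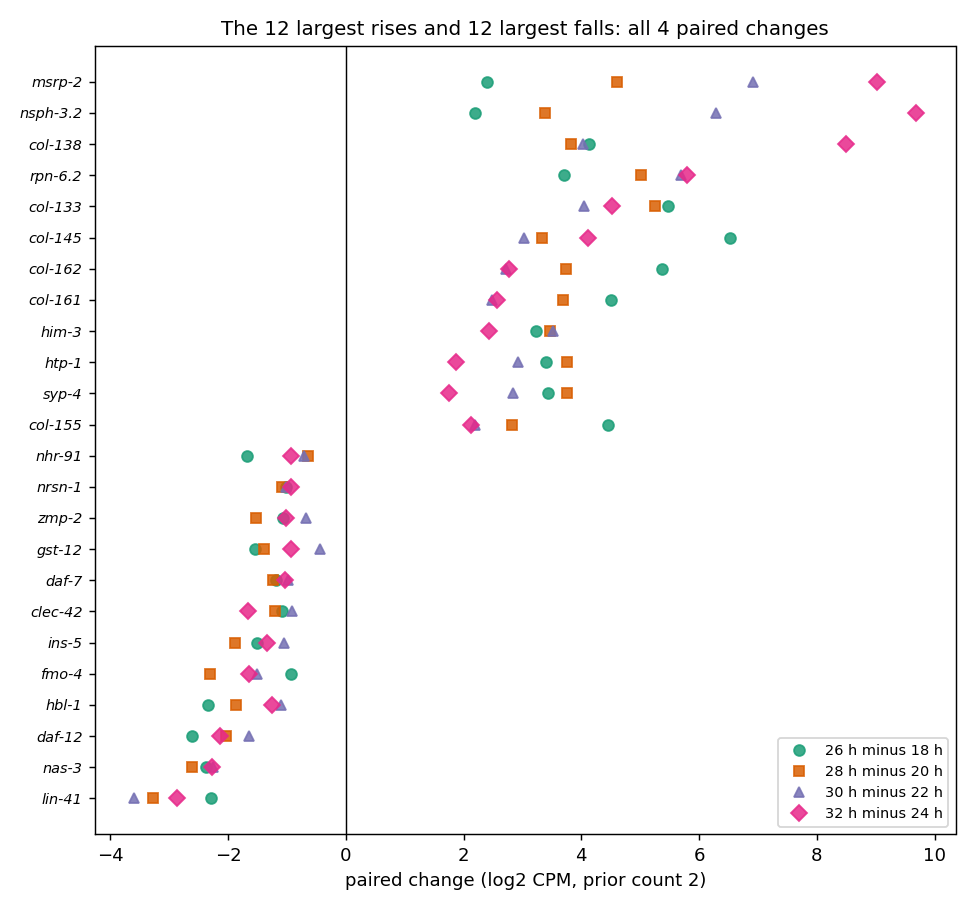
Paired changes (log2 CPM, prior count 2) of the 12 genes with the largest rises and the 12 with the largest falls among called genes with a gene-class name and a mean of at least 10 CPM; each row is a gene and each symbol 1 of the 4 pairs. The 4 symbols of every row lie on 1 side of 0, those of nas-3 lie within -2.61 to -2.25, and those of msrp-2 spread from 2.40 to 9.02.

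Among the timing genes, lin-41 and hbl-1 fell and lin-29 and mab-10 of the adult switch rose, while the early factors lin-14 and lin-28 did not pass. The RNA-binding protein gene lin-41, which holds back adult fates, had footprints at 66.6, 68.4, 78.0 and 50.6 CPM at 18, 20, 22 and 24 h and at 13.6, 6.96, 6.40 and 6.90 CPM at 26, 28, 30 and 32 h. Every first-cycle level lay above every second-cycle level, as for 5.88% of all tested genes, and lin-41 fell by 3.01 ± 0.25 on the log2 scale (SE; edgeR adjusted p = 0.0117). The transcription factor gene hbl-1, which keeps early seam fates, stood at 42.9, 18.1, 10.9 and 14.01 CPM and then at 8.44, 4.92, 5.01 and 5.80 CPM. It was already dropping within the first cycle, and the fall between cycles was -1.67 ± 0.24 log2 (edgeR adjusted p = 0.0249). The nuclear receptor gene daf-12, which reads the steroid hormone dafachronic acid, was at 116.8, 56.1, 53.8 and 52.1 CPM and then at 19.1, 13.7, 17.2 and 11.8 CPM, a change of -2.11 ± 0.17 log2 (edgeR adjusted p = 0.0103). Neither gene's ranges overlapped between the cycles. Of the 6 tested genes of dafachronic acid synthesis and reception, daf-12 was the only call (list median -0.77 log2). Of the 6, 4 were lower in all 4 pairs, as were 19.8% of all tested genes.

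The 2 timing genes that rose belong together in the adult switch of the epidermis. The zinc-finger gene lin-29, which starts that switch, was at 1.05, 1.03, 1.21 and 4.04 CPM in the first cycle and at 6.98, 10.98, 10.5 and 25.9 CPM in the second. Its 4 paired changes were alike at 2.63, 3.31, 3.03 and 2.65 log2, and it rose by 2.96 ± 0.17 log2 (7.76-fold; edgeR adjusted p = 0.00481). For mab-10, whose protein is a cofactor of LIN-29, the levels were 0.281, 0.271, 0.330 and 1.88 CPM and then 2.17, 1.99, 7.12 and 28.5 CPM. The fitted change was 3.67 ± 0.30 log2 (12.8-fold; edgeR adjusted p = 0.0103), with every second-cycle level above every first-cycle level, as for 6.38% of all tested genes. Within each cycle the latest library held the highest level of both genes.

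The other timing genes did not pass. Of the 16 heterochronic genes, all tested, 2 were called higher and 2 lower, and 8 were lower in all 4 pairs. Over all tested genes these shares were 2.56%, 0.651% and 19.8%. The list median was -0.31 log2 against -0.01 log2 over all genes. lin-14, a nuclear factor of the earliest fates, changed by -0.79, -0.14, -1.12 and -0.69 log2 (fitted -0.69 ± 0.17 log2, edgeR adjusted p = 0.0712). lin-28, an RNA-binding protein gene that acts beside it, changed by -1.05, -0.45, -0.13 and 0.30 log2, so that 32 h lay above 24 h. lin-46, which acts against lin-28, went from 3.84 log2 for 26 h with 18 h to -2.18 log2 for 32 h with 24 h, and its 2 ranges overlapped. sea-2 passed the adjusted p (0.0494 by edgeR) at a change of only -0.32 log2. Leaving out the pairs in turn from 26 h with 18 h to 32 h with 24 h left 2, 2, 0 and 0 of the higher timing genes called and 2, 1, 0 and 0 of the lower. For daf-12 the call held without either of the first pairs and was lost without either of the last.

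**Figure D2:**
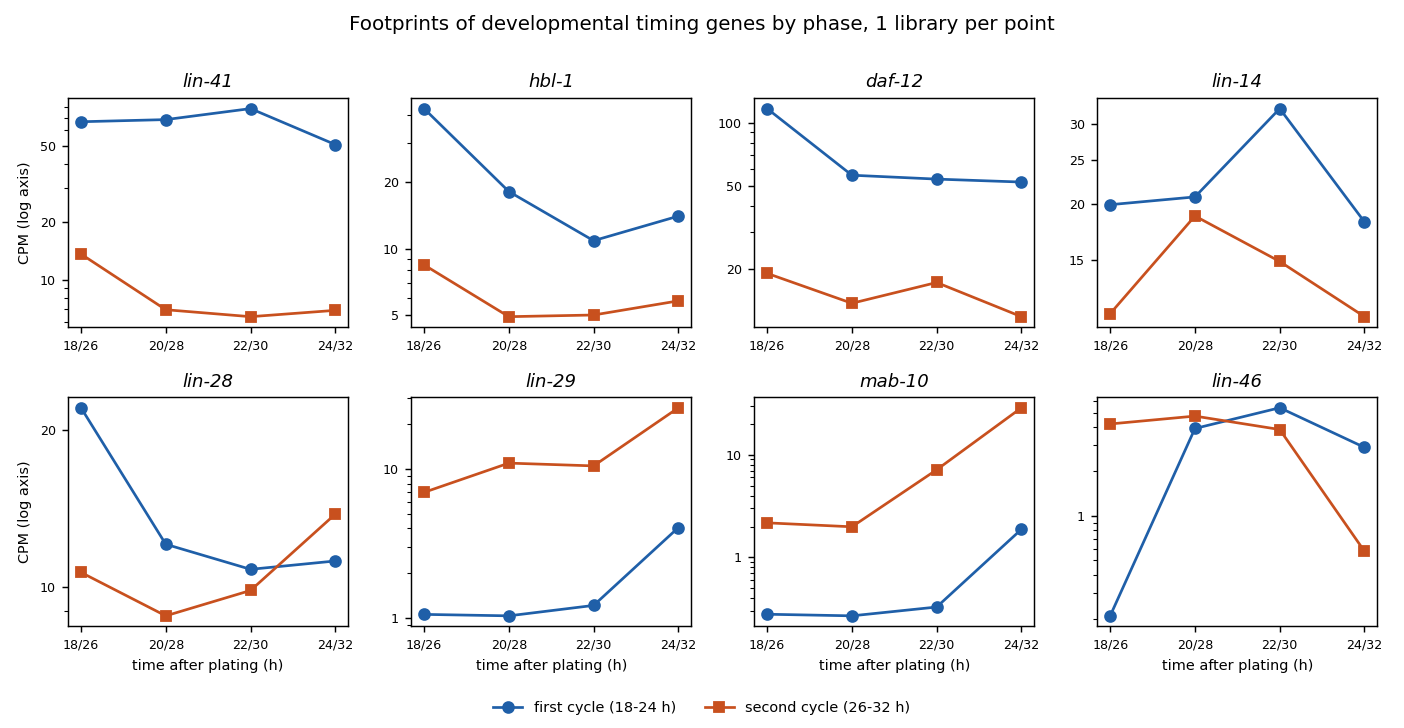
CPM (log axis, scaled separately per gene) of 8 timing genes, 1 library per point, with the first cycle in blue circles and the second in orange squares at the same phase. lin-41, hbl-1 and daf-12 lie lower in the second cycle at every phase and lin-29 and mab-10 higher, while the lines of lin-28 and lin-46 cross.

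Regulators of the seam cells and the epidermis were mostly lower in the second cycle. Of 14 tested, 4 were called lower and 0 higher, and 9 were lower in all 4 pairs (list median -0.60 log2). Of all tested genes 0.651% were called lower and 19.8% were lower in all 4 pairs. The called genes were ceh-16, an engrailed-type homeobox gene (-2.07 ± 0.36 log2, edgeR adjusted p = 0.0340), rnt-1, the Runx gene of seam divisions (-1.21 ± 0.16 log2, edgeR adjusted p = 0.0215), its partner bro-1 (-1.44 ± 0.27 log2, edgeR adjusted p = 0.0409) and nhr-74, a nuclear receptor gene (-1.22 ± 0.17 log2, edgeR adjusted p = 0.0233). All are low: ceh-16 was at 5.47, 2.76, 3.34 and 3.08 CPM and then at 2.23, 0.852, 0.389 and 0.432 CPM. With the pairs removed in the same order, 3, 0, 0 and 0 of these calls were left. Of 188 nuclear receptor genes, 4 were called lower (daf-12, nhr-38, nhr-74 and nhr-91; 2, 1, 0 and 0 with pairs left out) and 68 were lower in all 4 pairs, 36.2% of them beside 19.8% of all tested genes. The last of these, nhr-91, which is also among 13 regulators of the moulting rhythm, missed the call under 9 of 15 alternatives. Of 48 ceh homeobox genes only ceh-16 was called, and 25 were lower in all 4 pairs.

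Genes of the germ line made up many of the rises within the lists. Most calls stood outside them: 91 of the 330 higher genes and 23 of the 84 lower genes were in any of the 55 lists. Of 36 tested genes of meiosis and synapsis, 21 were called higher (1 of them passed the filter only with second-cycle libraries) and 0 lower, 32 stood higher in all 4 pairs, and the list median was 1.13 log2. Of all tested genes, 2.56% were called higher and 18.8% stood higher in all 4 pairs. The summed level of the meiosis genes was 235.4, 254.5, 312.8 and 457.3 CPM in the first cycle. It was 523.7, 622.9, 763.4 and 826.9 CPM in the second, with no overlap. It climbed from each library to the next, within cycles as well as between them. In whole worms, more germ cells and more footprints per germ cell cannot be told apart.

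By role, all 6 tested syp genes, which build the central part of the synaptonemal complex that zips paired chromosomes, were called, and so were the chromosome axis genes him-3, htp-1, htp-2 and htp-3. him-3 was at 1.86, 2.82, 3.89 and 10.5 CPM and then at 18.3, 32.0, 45.5 and 57.1 CPM, a rise of 3.18 ± 0.23 log2 (9.07-fold; edgeR adjusted p = 0.00851). syp-4 was at 1.68, 2.17, 6.01 and 12.9 CPM and then at 19.1, 30.4, 43.6 and 43.6 CPM, a rise of 2.93 ± 0.39 log2 (edgeR adjusted p = 0.0254). The rise of syp-4 was smallest for 32 h with 24 h (1.75 log2), and that of htp-1 likewise (1.88 log2 beside 2.93 to 3.76 log2 for the other pairs). The meiotic cohesin rec-8, already present at 18 h, stood just at the threshold. Its levels were 23.6, 26.2, 33.7 and 53.4 CPM and then 57.2, 59.2, 71.8 and 72.9 CPM (1.00 ± 0.16 log2, edgeR adjusted p = 0.0286), and it missed the call under 11 of 15 alternatives. htp-1 and htp-2, and coh-3 and coh-4, are near-identical copies, and the sources used here do not say where reads with several matches were placed, so their split is uncertain. With pairs removed in the same order, 16, 8, 0 and 0 meiosis genes were called.

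Germ granules, where germ cells gather RNA, and the Argonautes that use small RNAs gave fewer calls. Of 16 tested P granule genes 4 were called higher and 14 stood higher in all 4 pairs (list median 0.53 log2). The shares over all tested genes were 2.56% and 18.8%. The scaffold gene pgl-3 was at 8.32, 11.5, 18.0 and 16.5 CPM and then at 33.4, 53.6, 82.0 and 93.6 CPM, a rise of 2.23 ± 0.10 log2 (edgeR adjusted p = 0.00316). For deps-1 the paired changes of 1.11, 1.20, 1.23 and 1.15 log2 were almost equal (fitted 1.17 ± 0.06 log2, edgeR adjusted p = 0.00444). The helicase genes glh-2 and glh-4 were called as well, while glh-1 of the same family reached 0.94 ± 0.12 log2, under the size threshold. Of 16 Argonautes 4 were called higher, csr-1 (1.16 ± 0.10 log2, edgeR adjusted p = 0.0104) and wago-1 (1.13 ± 0.07 log2, edgeR adjusted p = 0.00669) by about a doubling, and wago-10 and alg-4 from near silence. Both wago-10 and alg-4 passed the count filter through the second cycle alone. Calls numbered 3, 3, 0 and 0 among P granule genes and 4, 3, 0 and 0 among Argonautes when the pairs were left out in turn.

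**Figure D3:**
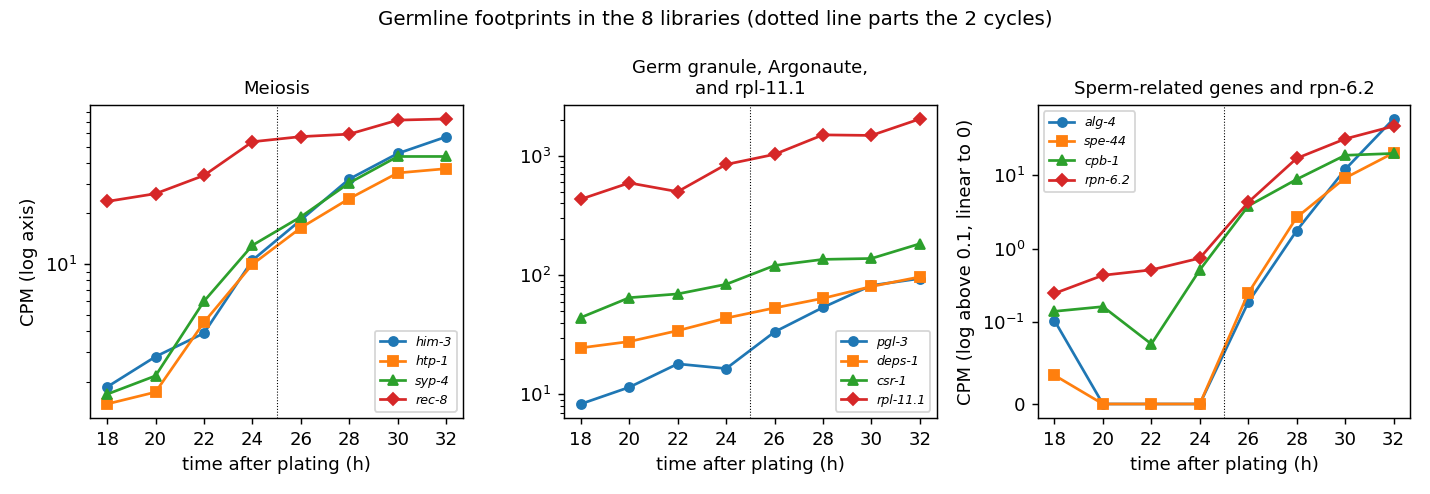
CPM of germline genes at each of the 8 times, 1 library per point; the axes are logarithmic, except that the right-hand axis is linear under 0.1 CPM so that 0 can be shown. him-3, htp-1, syp-4 and deps-1 climb gradually across the 8 libraries, while alg-4 and spe-44 stay at 0 to 0.105 CPM through 24 h and climb from 26 h on; levels of different genes are not corrected for gene length.

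Regulators of germ-cell fate rose at different times. Of 25 germline RNA regulators, all tested, 6 were called higher and 20 stood higher in all 4 pairs (list median 0.77 log2). The same shares over all tested genes were 2.56% and 18.8%. gld-1, which represses translation in early meiosis, was at 5.90, 4.44, 5.39 and 9.34 CPM and then at 9.68, 12.5, 20.7 and 54.9 CPM, and its paired changes widened from 0.71 to 2.54 log2 (fitted 1.69 ± 0.33 log2, edgeR adjusted p = 0.0473). fog-3, which commits germ cells to sperm, did the reverse. It was at 4.70, 6.39, 7.40 and 13.7 CPM and then at 19.7, 28.0, 31.05 and 22.2 CPM, with changes of 2.04, 2.11 and 2.06 log2 in the first 3 pairs and 0.70 log2 for 32 h with 24 h (fitted 1.74 ± 0.29 log2, edgeR adjusted p = 0.0353). cpb-1, needed for sperm formation, went from 0.140, 0.163, 0.0733 and 0.513 CPM to 3.78, 8.71, 18.5 and 19.6 CPM. Only 1 of its first-cycle libraries reached the level of the count filter, so the size of its fitted change (5.82 ± 0.45 log2) is a description. The call of fog-3 was lost when any pair was left out, and that of gld-1 when any but 26 h with 18 h was. Leaving out the pairs in turn left 5, 2, 1 and 0 calls in the list.

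Genes of sperm itself climbed in the second cycle and were highest at 30 h and 32 h as a sum. Only 16 of 47 listed sperm genes other than the major sperm proteins had enough counts to be tested, and 10 of those were called higher. Because such genes passed the count filter through the second cycle alone, they had to differ, and their count says nothing further. spe-44, a transcription factor gene of sperm, had 0 counts at 20, 22 and 24 h and 0.0351 CPM at 18 h, then 0.248, 2.65, 9.07 and 19.9 CPM. The phosphatase gene gsp-3 was at 0.0351, 0, 0, 0 CPM and then at 0.0620, 1.33, 8.40 and 34.1 CPM. The summed level of all 47 was flat at 42.5 to 46.4 CPM through the first cycle and at 49.8, 65.1, 164 and 582 CPM in the second. Of the first-cycle sum, spe-48, which was not called, held 16.4, 16.7, 22.9 and 17.9 CPM. gsp-3 and gsp-4, and the 4 ssq genes, are near-identical copies of uncertain split. Calls numbered 11, 5, 0 and 0 when the pairs were left out in turn.

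The major sperm proteins, which drive the crawling of nematode sperm, are the extreme case. Among the 30 msp genes counted, 6 had no count, 24 had counts and all 24 had their highest count at 32 h, while 20 of the 24 had 0 counts in all first-cycle libraries. Only 4 were tested. The family summed to 3, 0, 2 and 1 counts at 18, 20, 22 and 24 h and to 41, 108, 408 and 4741 counts at 26, 28, 30 and 32 h. For msp-64 all first-cycle libraries were at 0, and with 3 counts per library in their place it was at least 183-fold higher at 32 h than at 24 h and at least 29.9-fold higher at 30 h than at 22 h. The copies are near-identical, so the family total is firmer than any single gene. All 4 passed the count filter through the second cycle alone and had to differ, so their calls say nothing further.

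Single members of housekeeping families rose where the rest of the family gave no call. rpl-11.1, a ribosomal protein gene, was at 432.8, 592.9, 500.7 and 846.3 CPM and then at 1028.5, 1497.9, 1482 and 2037 CPM (1.35 ± 0.08 log2, edgeR adjusted p = 0.00481). The list of 78 tested ribosomal protein genes had a median of 0.27 log2 and no other call. Of the 78, 60 stood higher in all 4 pairs, as did 18.8% of all tested genes. rpn-6.2, a proteasome subunit gene, was at 0.246, 0.433, 0.513 and 0.740 CPM and then at 4.25, 16.8, 30.8 and 45.9 CPM (5.46 ± 0.32 log2, 43.9-fold; edgeR adjusted p = 0.00549), against a median of 0.12 log2 over 33 proteasome genes with no other call. his-70, a variant histone gene, was at most at 0.0570 CPM in the first cycle and was tested only through the second, so its fitted change of 6.95 ± 0.60 log2 is a description; the 32 tested histone genes had a median of 0.22 log2 and no other call. Leaving out the pairs in turn left 1, 1, 0 and 0 calls among ribosomal protein genes, the same among proteasome genes, and 2, 1, 0 and 0 among histone genes.

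Of the markers of germ cells, adults and males, some rose and others did not. The germ-cell markers glh-1, pgl-1 and glp-1 summed to 290 to 513 CPM in the first cycle and 588 to 816 CPM in the second. The yolk genes vit-2, vit-5 and vit-6, markers of adults, summed to 0.330 to 0.842 CPM and to 0.142 to 39.9 CPM, with the highest value at 32 h and vit-5 at 0 to 0.0556 CPM throughout. Of the male markers mab-3, pkd-2 and lov-1, 2 of 3 stayed at 13 counts or fewer, and all 3 summed to 0.667 to 1.32 CPM and then to 2.23 to 9.79 CPM. mab-3, a gene of male differentiation, was at 0.175, 0.758, 0.990 and 1.14 CPM and then at 1.86, 5.21, 9.35 and 8.58 CPM (3.05 ± 0.17 log2, edgeR adjusted p = 0.00481). Of 5 tested genes listed for males mab-3 was called higher and klp-6 lower (2, 1, 0 and 0 and 0, 0, 0 and 0 calls with pairs left out). klp-6 passed the count filter through the first cycle alone. The median of the male list was -0.83 log2, with 2 of the 5 higher in all 4 pairs and 3 lower. The part of adults or males in the sperm and germline results was not tested. Of 17 tested genes listed for the somatic gonad 3 were called higher, 1 of which, inx-22, belongs to the germ line. They were the forkhead gene fkh-6 (4.95 ± 0.56 log2, edgeR adjusted p = 0.0159) and the gap-junction genes inx-8 (3.21 ± 0.37 log2, edgeR adjusted p = 0.0163) and inx-22 (1.90 ± 0.21 log2, edgeR adjusted p = 0.0157). The list median was 0.02 log2, and over all tested genes 2.56% were called higher and 0.651% lower. Of the 3 called genes, fkh-6 and inx-22 reached the level of the count filter in fewer than 3 first-cycle libraries. Their calls are no independent evidence of a rise. Every second-cycle level lay above every first-cycle level for all 3, as for 6.38% of all tested genes and 275 of the 330 called higher. Calls in this list numbered 4, 0, 0 and 0 with the pairs left out in turn.

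Genes of cell division gave no call. Of 34 DNA replication genes and 52 mitosis and kinetochore genes 0 were called by edgeR (0 and 19 at an unadjusted p under 0.05) and 0 by DESeq2. Their medians were 0.04 and 0.25 log2, the former at -0.07 log2 when scaled by total counts. Of 8 tested oocyte and eggshell genes 1 was called, cbd-1 (1.10 ± 0.18 log2, edgeR adjusted p = 0.0299; lost without any pair but the first), and of 23 vulva and anchor-cell genes 0 (7 at an unadjusted p under 0.05; 1 by DESeq2).

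Collagens of the cuticle were the other large group of rises within the lists. Of 122 tested col genes, which encode cuticle collagens, 23 (18.9%) were called higher and 0 lower. In all 4 pairs 65 stood higher, 26 of them by more than 1 log2 in each. Over all tested genes 2.56% were called higher, 18.8% stood higher in all 4 pairs and 1.45% by more than 1 log2 in each. The list median was 1.33 log2. Summed col footprints were 6372, 32360, 25390 and 11070 CPM in the first cycle and 20150, 70940, 49020 and 25000 CPM in the second, so every second-cycle library exceeded its partner while the ranges of the cycles overlapped. The share of the family went from 0.658%, 3.07%, 2.87% and 1.16% of all counts to 1.93%, 6.44%, 5.11% and 2.36%.

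The timing within a cycle was kept by some col genes and not by others: 12 of the 23 called higher, and 77 of all 122 tested, had their highest level in the same phase of both cycles. Of the 23 called genes, 12 reached the level of the count filter in fewer than 3 first-cycle libraries. col-133 was at 0.211, 38.1, 118.6 and 8.32 CPM and then at 13.1, 1449, 1952 and 192 CPM, and its paired changes of 5.47, 5.24, 4.04 and 4.52 log2 (fitted 4.79 ± 0.34 log2, 27.6-fold; edgeR adjusted p = 0.0104) came with a highest level at 22 h and again at 30 h. The ranges of col-133 overlapped, since its 22 h level exceeded its 26 h level. col-145 (4.11 ± 0.70 log2, edgeR adjusted p = 0.0388), col-162 (3.52 ± 0.51 log2, edgeR adjusted p = 0.0299) and col-161 (3.26 ± 0.42 log2, edgeR adjusted p = 0.0244) were all highest at 22 h in the first cycle, each with its largest change for 26 h with 18 h. In the second cycle col-145 was highest at 30 h (2177 CPM, beside 2168 CPM at 28 h), whereas col-162 and col-161 were highest at 28 h, the partner of 20 h. col-138 differed: its changes were 4.13, 3.82, 4.03 and 8.49 log2, as it reached 154 CPM at 32 h after at most 18.8 CPM before. Within the first cycle, a col gene ranged over a median of 3.96 log2 from its lowest to its highest library, and those called higher over a median of 1.93 log2. Without each pair in turn 25, 9, 0 and 0 col genes were called; col genes are also similar in sequence, so single values carry the doubt about reads that match several places.

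**Figure D4:**
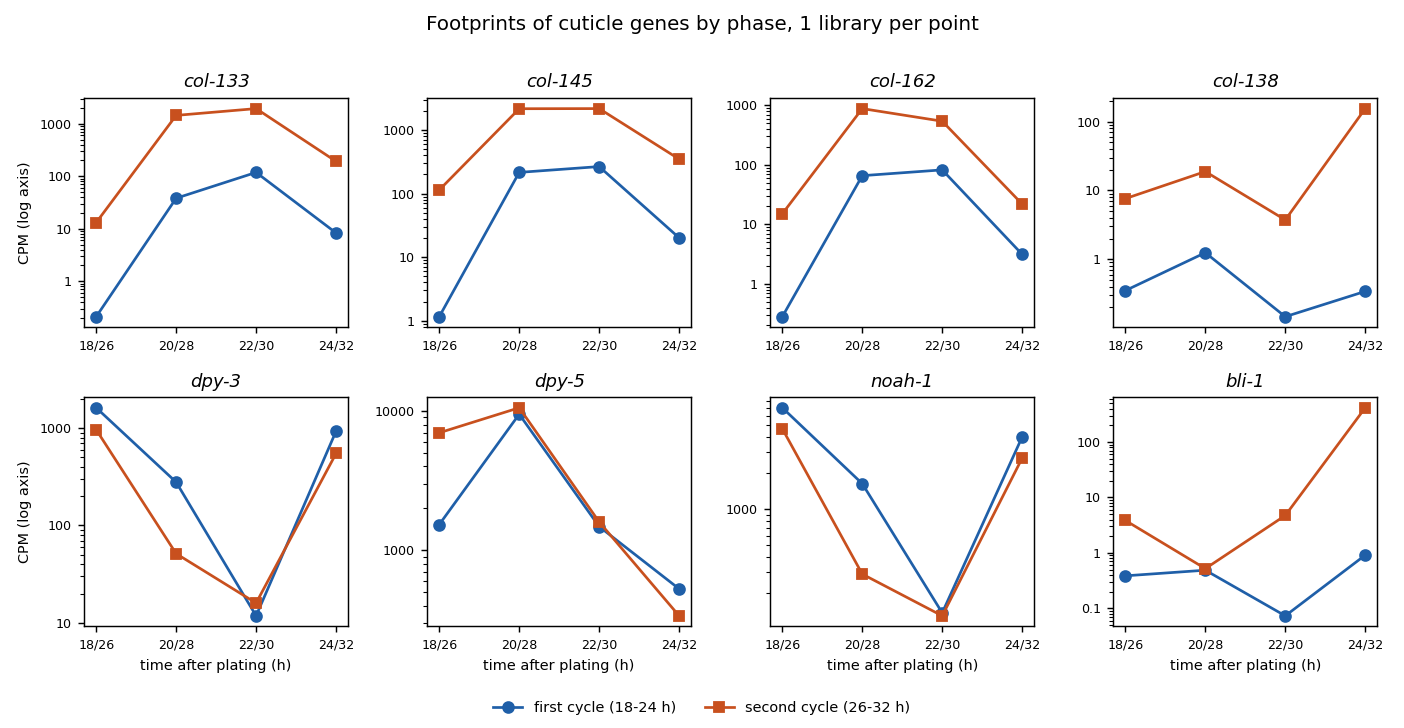
CPM (log axis, scaled separately per gene) of 8 cuticle genes, 1 library per point, first cycle in blue circles and second cycle in orange squares at the same phase. col-133, col-145 and col-162 lie higher in the second cycle at every phase, dpy-3 and noah-1 part mainly at 20 h with 28 h, dpy-5 at 18 h with 26 h, and bli-1 at 24 h with 32 h.

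Cuticle genes that repeat at every moult gave no call, and their changes differed from pair to pair. Of the 6 furrow collagens, 10 other body-shape collagens, 21 moulting and precuticle genes, 27 patched-related genes and 43 pharyngeal cuticle genes, 0 were called by edgeR; at an unadjusted p under 0.05 there were 0, 0, 0, 3 and 1, and by DESeq2 0, 0, 0, 0 and 3 (all higher). The furrow collagens, which shape the rings of the cuticle, had pair medians of -0.33, -2.27, 0.41 and -0.51 log2, lowest for 28 h with 20 h. dpy-3 among them was at 1617, 278, 11.8 and 928 CPM and then at 962, 51.3, 15.97 and 548 CPM. noah-1, a gene of the early matrix that precedes the new cuticle, changed by -0.58, -2.50, -0.08 and -0.59 log2. The other body-shape collagens had pair medians of 1.76, -0.94, 0.17 and -0.53 log2, and dpy-5 went from 1530 CPM (18 h) to 6977 CPM (26 h), 2.19 log2, while its other changes were 0.15, 0.11 and -0.64 log2. Pharyngeal cuticle genes had pair medians of 1.75, 1.00, -0.32 and -0.09 log2. For abu-14 among them they read 2.95, 0.16, -0.42 and -0.82 log2.

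Some genes stood apart in a single pair. grl-16, a hedgehog-related gene, went from 27.4 CPM (18 h) to 661 CPM (26 h), a change of 4.59 log2, while its other changes were 0.86, 0.55 and 0.62 log2. col-54 (5.15 log2), appg-2 (4.57 log2) and cpg-19 (4.41 log2) also had their excess in the pair of 26 h with 18 h. None of these genes was called. For 28 h with 20 h the genes with the most excess were col-160 (4.07 log2), nlp-26 (3.43 log2) and fipr-6 (3.67 log2). For 30 h with 22 h they were cnc-4 (-5.25 log2), fcmt-1 (2.75 log2) and ptr-1 (-2.33 log2). cnc-4, of a family of antimicrobial peptides, stood at 141 CPM at 22 h and at 0.575 to 11.05 CPM in every other library.

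The late pair of 32 h with 24 h brought bli-1, col-138 and vit-1. bli-1, a collagen of the struts of the adult cuticle, was at 0.386, 0.488, 0.0733 and 0.911 CPM and then at 3.85, 0.521, 4.73 and 414 CPM. With changes of 3.06, 0.08, 4.91 and 8.70 log2 it was not called (edgeR adjusted p = 0.113), and neither was the other strut collagen bli-2, which reached 257 CPM at 32 h (edgeR adjusted p = 0.0898); both were called by DESeq2. The yolk gene vit-1, the only 1 of 6 with enough counts to be tested, was at 0.596 to 0.797 CPM in the first cycle and reached 86.1 CPM at 32 h (edgeR adjusted p = 0.162).

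Among smaller cuticle families, cut-1, a cuticlin gene, rose by 4.85 ± 0.65 log2 (edgeR adjusted p = 0.0218) to at most 3.55 CPM and cutl-19 fell by 1.06 ± 0.22 on the log2 scale (edgeR adjusted p = 0.0477), of 31 tested. Of 46 hedgehog-related genes 3 were called higher (grl-9, grl-20 and grl-25, all at 5.18 CPM or less) and 1 lower (grl-3). Over all tested genes the called shares were 2.56% higher and 0.651% lower. cut-1, grl-9, grl-20 and grl-25 passed the count filter through the second cycle alone. grl-3 reached its level in only 2 second-cycle libraries. The calls of these genes are no independent evidence of a difference. The astacin protease gene nas-3 fell steadily: it was at 45.7, 10.3, 8.28 and 26.0 CPM and then at 8.78, 1.61, 1.67 and 5.32 CPM, and all 4 changes lay between -2.61 and -2.25 log2 (fitted -2.40 ± 0.11 log2, edgeR adjusted p = 0.00316). It kept its rhythm and was the only call among 27 astacins (median 0.08 log2, or -0.03 log2 with total counts). The call of nas-3 held when any pair except 32 h with 24 h was left out. Leaving out the pairs in turn left 3, 1, 0 and 0 cuticlin and 1, 0, 0 and 0 hedgehog-related genes called higher, and 0 called lower in each case.

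Genes of neurons were lower in the second cycle by small and even amounts. Of 34 synaptic and neuronal genes 29 were lower in all 4 pairs and of 30 FMRFamide-like peptide genes also 29, with medians of -0.63 and -0.64 log2, beside 19.8% of all tested genes lower in all 4 pairs. By edgeR 16 and 15 passed the adjusted p, and 1 and 0 the size as well (for the peptide genes 27 at an unadjusted p under 0.05 and 0 by DESeq2). Synaptic genes summed to 1269, 1234, 1224 and 1008 CPM and then to 890, 856, 839 and 784 CPM, and the peptide genes to 417, 411, 398 and 325 CPM and then to 271, 262, 271 and 230 CPM. Both sums had separate ranges. egl-3, whose protein cuts peptide precursors, changed by -0.56, -0.66, -0.58 and -0.41 log2, and the peptide gene flp-1 by -0.80, -0.94, -0.73 and -0.74 log2. unc-46, needed to load the transmitter GABA, was the only synaptic call (-1.14 ± 0.12 log2, edgeR adjusted p = 0.0151; 2, 0, 0 and 0 calls with pairs left out).

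Among other signals, the nlp list (63 tested, median -0.47 log2, 38 lower in all 4 pairs) gave 1 call, nlp-17 (-1.03 ± 0.17 log2, edgeR adjusted p = 0.0312). For comparison, 19.8% of all tested genes were lower in all 4 pairs and 0.651% were called lower. The insulin-like list (23 tested, median -0.46 log2) gave ins-5, at 38.4, 14.9, 8.58 and 24.9 CPM and then 13.4, 3.98, 4.12 and 9.78 CPM (-1.46 ± 0.15 log2, edgeR adjusted p = 0.0151). The TGF-beta list (19 tested, median -0.22 log2) gave daf-7, the ligand that keeps larvae out of the dauer stage. daf-7 was lower in each library than in the one before, at 44.4, 37.8, 30.4 and 25.29 CPM and then 19.4, 16.1, 15.4 and 12.3 CPM (-1.11 ± 0.08 log2, edgeR adjusted p = 0.00814). The calls of ins-5 and daf-7 held without either of the first pairs and were lost without either of the last, and that of nlp-17 was lost without any of the 4. Footprints of the neuron markers unc-119, rgef-1 and snb-1 summed to 124 to 178 CPM and then 118 to 132 CPM.

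Muscle, gut and the general machinery of the cell gave no call. By edgeR 0 calls were made among 36 body-wall muscle genes (median -0.01 log2), 10 genes listed for pharyngeal muscle, 1 of which, act-5, belongs to the gut (-0.09), 31 intestine genes (0.15), 69 mitochondrial ribosomal protein genes (-0.01), 35 respiratory chain genes (0.05), 29 genes of ER entry and folding (0.05), 13 fatty acid desaturases and elongases (-0.0032), 8 lysozyme genes (0.16), 14 basement membrane genes (0.21), 19 Wnt pathway genes (-0.12), 7 small heat shock genes (0.36), 12 starvation and dauer genes (0.06) and 5 embryo genes (-0.09). In all, 24 of 55 lists held no call among 537 tested members, with 115 at an unadjusted p under 0.05 and 33 at an adjusted p under 0.05 of any size by edgeR, and 8 higher and 1 lower by DESeq2. The medians of respiratory chain, ER and starvation genes, and those of hedgehog-related, somatic gonad and C-type lectin genes, changed sign when scaled by total counts.

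**Figure D5:**
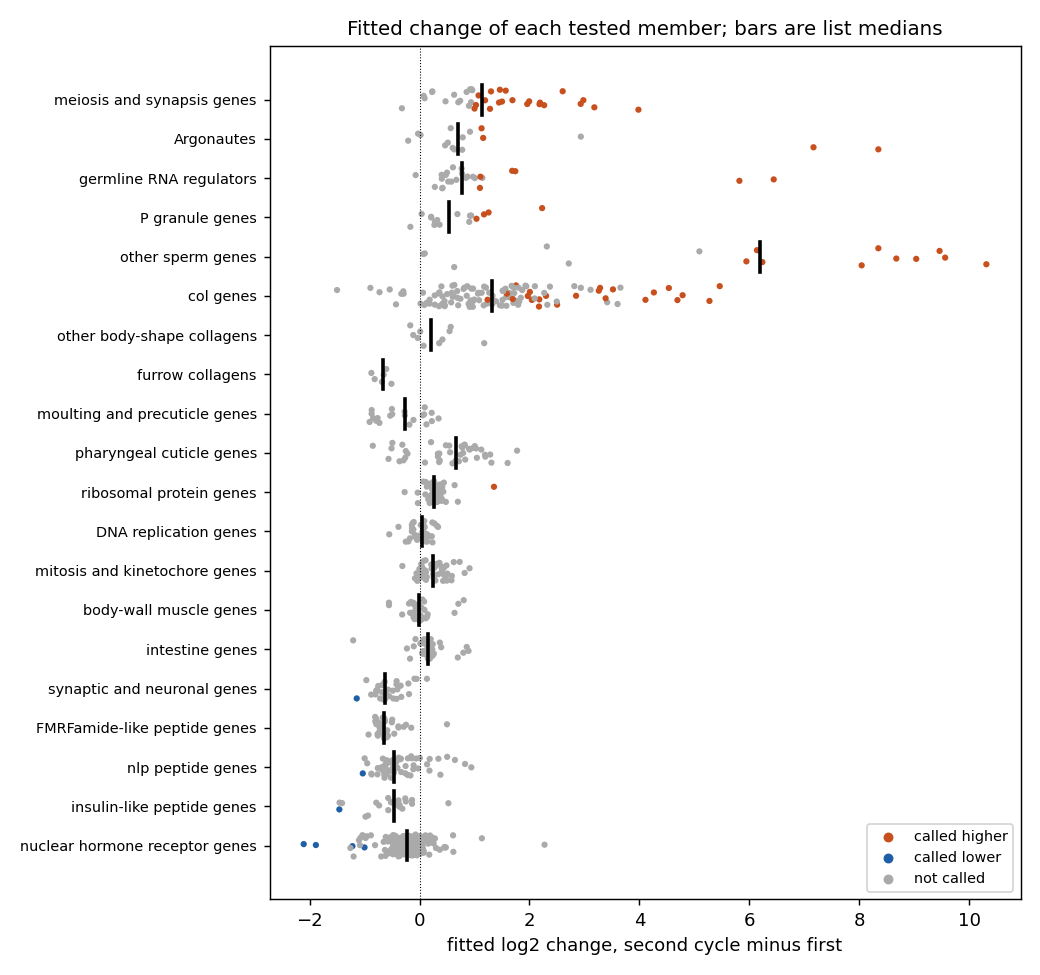
Fitted log2 change (second cycle minus first) of every tested member of 20 gene lists; each dot is a gene, orange if called higher, blue if called lower and grey otherwise, and black bars mark list medians. Meiosis genes (median 1.13) and col genes (1.33) lie to the right of 0, DNA replication (0.04) and body-wall muscle genes (-0.01) around it, and synaptic (-0.63) and FMRFamide-like peptide genes (-0.64) to its left; the sperm genes shown are those that passed the count filter.

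Metabolic and defence families gave scattered calls. Over all tested genes 2.56% were called higher and 0.651% lower, and the lectins called higher (2%) did not exceed the former share. Of 100 C-type lectin genes, sugar-binding proteins, 2 were called higher (clec-73 and clec-79, both near 0 in the first cycle) and 3 lower, among them clec-42 (-1.23 ± 0.14 log2, edgeR adjusted p = 0.0159) and clec-9 (-4.03 ± 0.50 log2, edgeR adjusted p = 0.0184), which was at 5.23, 2.55, 0.733 and 0.513 CPM and then at 0.155, 0.142, 0.167 and 0.0479 CPM. clec-73, clec-79 and clec-9 passed the count filter only with libraries of the cycle in which they are high. Without the pairs in turn 2, 1, 1 and 0 lectins were called higher and 4, 0, 0 and 0 lower. The near-identical cytochrome genes cyp-31A2 and cyp-31A3 were called higher (51 tested, median -0.06 log2), as was the glucuronosyltransferase gene ugt-53 (60 tested, median -0.10 log2), while the glutathione transferase gene gst-12 (38 tested, median -0.03 log2) and the transthyretin-related genes ttr-23 and ttr-28 (46 tested, median -0.04 log2) were called lower. None of these calls was made without either of the last pairs.

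The remaining large falls among genes with a mean of at least 10 CPM were fmo-4, a flavin monooxygenase gene (-1.60 ± 0.23 log2, edgeR adjusted p = 0.0296), zmp-2, a matrix protease gene (-1.09 ± 0.15 log2, edgeR adjusted p = 0.0224), and nrsn-1 (-1.01 ± 0.07 log2, edgeR adjusted p = 0.00763). fmo-4 kept a strong rhythm at a lower level, with 742, 282, 60.5 and 393 CPM and then 388, 57.2, 21.3 and 126 CPM. Genes without a class name moved too: T22F7.4 (-1.39 ± 0.09 log2), F45D3.2 (-1.18 ± 0.20 log2) and F13E9.11 (-1.06 ± 0.10 log2) fell, and B0393.4 (7.35 ± 0.72 log2), Y69A2AR.32 (3.86 ± 0.34 log2) and T10E9.4 rose, with edgeR adjusted p from 0.00691 to 0.0377. T10E9.4 had 1, 0, 0 and 0 counts in the first cycle and then 0.744, 7.67, 33.1 and 82.7 CPM, at least 484-fold higher in CPM at 32 h than at 24 h with 3 counts in place of the 0 at 24 h. msrp-2 (0, 0, 0 and 1 counts, then 12, 43, 187 and 1554) and nsph-3.2 (0, 2, 1 and 0 counts, then 10, 41, 171 and 1497) followed the same course. All the calls named in this group, from fmo-4 to nsph-3.2, were lost without 32 h with 24 h, and all but msrp-2 without 30 h with 22 h.

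The libraries at 34 h and 36 h have no partner of the first cycle and were kept out of the comparison. Set against 26 h and 28 h, which they share with it, the 330 higher genes had median changes of 1.45 and 1.25 log2 and the 84 lower genes of -0.80 and -0.69 log2. lin-29 changed by 2.25 and 0.39 log2, daf-12 by -0.71 and -0.97 log2, and lin-41 by -0.98 and then 1.95 log2, as its footprints were at 26.0 CPM at 36 h.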

How the data were processed

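Footprints were sequenced from whole worms, 1 library per time, after monosome purification and excision of fragments of about 28 to 30 nucleotides from a gel, per the labels' protocols. Reads were mapped with Bowtie, per the submitters' processing notes (version, build, counting rule and the fate of reads with several matches: not given in the sources used here); coordinates are therefore left out. The authors deposited raw counts of footprints per gene (20182 genes) and normalized log2 values, which equal log2 of the count scaled to the mean library total plus 8 (largest difference 5e-05). Counts were used for every result but 1 alternative.

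Of 20182 genes, 7273 fell below the filter (in 3 libraries or more, a CPM worth 10 counts at median depth) and 12909 were tested; symbols were found for 18778. edgeR 4.0.16 in R 4.3.3 fitted TMM-scaled counts with phase (4 levels) and cycle, 5 coefficients that leave 3 residual degrees of freedom, with robust quasi-likelihood tests and Benjamini-Hochberg adjustment over all tested genes. Genes were called at an adjusted p below 0.05 with a change of 1 log2 or more. Paired changes use log2 CPM with a prior count of 2 and have no test. Pairing rests on sampling time alone, not on a shared culture. Standard errors are the fitted change divided by the root of the test statistic. The fit was tested on simulated data. limma 3.58.1 and DESeq2 1.42.0 served as alternatives, matplotlib 3.10.9 for plots. Counting error is small for abundant genes, while CPM values near 0 rest on a few counts or none. Where the earlier library of a pair had 0 counts, fold changes between the 2 libraries are lower bounds with 3 counts in its place. Fitted changes of genes with few first-cycle counts are uncertain in size.

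The comparison, its 55 gene lists and the tests were chosen with earlier results of these data known; 8 listed names (9 entries) were not found, and 19 of 1748 tested members stand in more than 1 list. Genes were named by rule: with a mean of at least 10 CPM and a class name, the 12 largest rises and falls, up to 3 called genes per list with its most abundant member, the heterochronic genes, the 3 largest rises and falls without a class name, and the 3 genes with the most excess in each pair. Genes named under 10 CPM, and the members printed as examples beyond that rule, were picked after their values were seen. No column of per-sample values was left unmapped; the libraries at 34 and 36 h enter only where said.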

Additional observations from a re-analysis of the deposited data

Results flagged for a closer look

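Among 116 named genes, 8 had a paired change that lay far from the other 3, by a rule that chance meets in about 1 of 20 groups. That rate does not apply to col-138, appg-2, cpg-19 and nlp-26, which were named for the excess of 1 pair; the other 4 genes were named for other reasons. Each pair is 2 libraries, so these are differences of single libraries. For 32 h with 24 h, the change of col-138 was 8.49 log2 beside 3.82 to 4.13 log2 in its other pairs, and that of lys-1, a lysozyme gene, 0.48 log2 beside 0.08 to 0.15 log2. In the same pair the germline genes fog-3 (0.70 log2 beside 2.04 to 2.11 log2) and glh-1 (0.54 log2 beside 1.04 to 1.10 log2) had their smallest change. For 26 h with 18 h, grl-16 changed by 4.59 log2 beside 0.55 to 0.86 log2, appg-2 by 4.57 log2 beside 0.01 to 0.72 log2, and cpg-19 by 4.41 log2 beside -0.90 to -0.20 log2. For 28 h with 20 h, nlp-26 changed by 3.43 log2 beside -0.03 to 0.42 log2.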

How the results depend on the processing

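The 330 genes called higher became 599 with no filter on low counts, 160 with limma on the deposited normalized values, 592 with linear time over all 10 libraries and 658 with no minimum size, and 0 to 325 with 1 pair left out. The 84 called lower became 190 with total counts alone, 47 with a mean of at least 50 counts, 144 with DESeq2, 165 with linear time and 503 with no minimum size, and 0 to 85 with 1 pair left out. Without the block for phase, which pairs the libraries 8 h apart, 1 gene was called higher and 0 lower by edgeR (2197 at an unadjusted p under 0.05). In that fit all differences between phases, rhythmic or not, count as error. Of 187 genes over 1 log2 higher in all 4 pairs, 103 were left with a prior count of 8, and 213 to 320 passed with 3 pairs. For the 26 lower ones the numbers were 41 (total counts alone), 13 (prior count of 8), 13 (mean of at least 50 counts) and 41 to 70 (3 pairs). The remaining alternatives stayed within 1.5 times. No named gene reversed its call under any alternative, and all 330 and 84 genes kept their direction wherever they were tested, which their choice for changes shared by the pairs largely fixes; the mean of at least 50 counts tested 246 and 42 of them. Depth limits the lowest genes, and 1 library per time limits every value.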

Other observations

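Outside the fixed lists, some gene classes held several calls. They were picked after the calls were seen and get no test. Over all tested genes 2.56% were called higher and 0.651% lower. Of 6 tested tofu genes, named for small RNA defects of the germ line, tofu-1, tofu-2 and tofu-7 were called higher. Both pid-4 and pid-5, of 5 tested pid genes, and zhp-1 and zhp-2, of 4 tested zhp genes of meiosis, were called higher as well. Of 29 dhs genes, encoding dehydrogenases, dhs-7, dhs-11 and dhs-14 were called higher and 0 lower. Of 26 bath genes 3 were called higher (bath-1, bath-2 and bath-24) and 2 lower (bath-9 and bath-37). Both lower bath genes passed the count filter through the first cycle alone, so their calls are no independent evidence of a fall. Among ion channel genes, twk-29 and twk-40 of 36 twk potassium channel genes and lgc-36 and lgc-46 of 39 lgc channel genes were called lower. unc-3, a transcription factor gene of motor neurons, was called lower too, at 4.81, 4.23, 3.34 and 2.05 CPM in the first cycle and 1.86, 1.89, 1.39 and 1.29 CPM in the second (-1.13 ± 0.18 log2, edgeR adjusted p = 0.0291). None of the calls over all genes was made without the pair of 32 h with 24 h.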
